A study of Mus musculus with 6 samples.

Results

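Globin-rich cells of the mouse aorta were examined: cells in which the UMIs (unique molecular identifiers, each counting 1 captured transcript) of the adult globin genes Hba-a1, Hba-a2, Hbb-bs and Hbb-bt made up 20% or more of all UMIs. They were chosen among cells with at least 300 genes and under 20% mitochondrial UMIs, and numbered 1192 of 59413 such cells (2.01%), or of 62838 cells deposited. Single-cell RNA was sequenced from 6 aorta samples of C57B/6J mice aged 18 weeks, 3 from mice on the control diet and 3 from mice on a high-fat diet. How many animals a sample pooled, and what the diets contained, was not given in the sources used here. Aortas were digested with collagenase and DNase, and the suspension passed through a red cell lysis buffer (ACK) before capture by droplets that tag the 3′ ends of transcripts. No label states that the samples of a group came from separate animals, so a p-value here speaks to the spread among these 6 samples, which may be technical.

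Red blood cells carry oxygen on haemoglobin, a tetramer of alpha and beta globin chains that each hold a haem group. Their precursors make haem in a pathway that starts with the enzyme Alas2, expel the nucleus, and leave the marrow as reticulocytes, which still hold ribosomes and RNA and clear their organelles through autophagy and ubiquitin-driven degradation. Mature red cells lose nearly all RNA, so a blood cell that still yields haemoglobin transcripts is usually a reticulocyte or a young red cell.

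The adult globin genes sit in a pair of clusters on the mm10 build. In the GENCODE annotation Hba-a1 lies at chr11:32283511-32284465 and Hba-a2 at chr11:32296489-32297298 on the plus strand, Hbb-bs at chr7:103826534-103828096 and Hbb-bt at chr7:103812524-103813996 on the minus strand, and Alas2 at chrX:150547375-150570638 on the plus strand. The 130 bases before the RefSeq start, which lies inside the GENCODE span of all 4 genes shown, are given for genes that define these cells, to set out the letters that their promoters share. Sequences are from RefSeq (GRCm38.p6), where all 5 marker genes had a window, and are printed 5′ to 3′ on the strand of the gene. Capitals mark 4 motifs, searched on both strands with overlaps allowed. The first is the box spelled CCAAT. The second is the one spelled CACCC, which Krüppel-like factors read. The third is the TATA box, spelled ATATAA in its first form with TATAAA as its second. The last is the core read by GATA factors, spelled AGATAA in its first form with TGATAA as its second. The windows lie at chr11:32283542-32283671 for Hba-a1, chr7:103827929-103828058 for Hbb-bs, chr7:103813924-103814053 for Hbb-bt and chrX:150547287-150547416 for Alas2.
Hba-a1: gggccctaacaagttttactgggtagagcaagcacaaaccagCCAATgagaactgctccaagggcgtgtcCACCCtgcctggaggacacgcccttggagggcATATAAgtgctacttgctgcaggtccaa
Hbb-bs: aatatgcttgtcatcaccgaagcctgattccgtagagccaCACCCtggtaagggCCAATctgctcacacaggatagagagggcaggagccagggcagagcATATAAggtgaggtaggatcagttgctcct
Hbb-bt: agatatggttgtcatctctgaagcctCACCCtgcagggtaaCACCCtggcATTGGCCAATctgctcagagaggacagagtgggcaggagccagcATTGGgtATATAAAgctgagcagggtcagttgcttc
Alas2: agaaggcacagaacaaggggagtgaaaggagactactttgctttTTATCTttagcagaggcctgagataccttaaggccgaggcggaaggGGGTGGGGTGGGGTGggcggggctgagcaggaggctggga

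In the 3 globin windows shown, CCAAT as well as the CACC and TATA motifs occurred in the printed direction. The TATA letters began at position -28, -30 and -29 from the start of Hba-a1, Hbb-bs and Hbb-bt. The Alas2 window held CACCC 3 times and AGATAA once, all read on the other strand. Over the 250 bases before the start, the GATA letters occurred in 16.6% of all 32851 RefSeq windows, CACCC in 52.0%, CCAAT in 33.8% and the TATA letters in 16.7%. In windows of that length, CACCC was found for all 5 marker genes, and the GATA letters for all but Hbb-bt. The windows of Hba-a1 and Hba-a2 were 97.6% identical over 250 bases and those of Hbb-bs and Hbb-bt 70.9%. A match of letters is a description of the sequence only.

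The globin UMIs chose the cells, so their level is given as a description. In the summed UMIs of the globin-rich cells of each sample, Hbb-bs, a beta chain gene, made up between 22.9% (control 2) and 29.5% (high-fat diet 3) of all UMIs, and Hbb-bt between 4.98% and 6.44%. Hba-a1, an alpha chain gene, made up 15.1% to 19.7% and Hba-a2 11.6% to 15.4%. The median cell held 4248.5 UMIs, of which 1062.5 were not globin, and 592 genes, against 4379 UMIs and 1714 genes in the other 58221 cells. Of the globin-rich cells 898 (75.3%) had a globin share of 60% or more, 144 lay between 40% and 60%, and 150 between 20% and 40%. The 39 cells just inside the threshold, at 20% to 25%, had a median of 4720 non-globin UMIs, and the 43 cells just outside, at 15% to 20%, had 3882.

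The balance between the globin chains was alike in the 6 samples of globin-rich cells. Alpha chains made up 48.4%, 48.9% and 47.7% of globin UMIs in the controls and 49.8%, 47.5% and 48.3% on the high-fat diet. The minor beta gene Hbb-bt gave 17.3% to 19.4% of beta chain UMIs, and Hba-a2 gave 42.8% to 44.5% of alpha chain UMIs. In the other cells, 88.5% of which carried at least 1 globin UMI, the alpha share was lower, at 35.4% to 42.1%, and Hbb-bt gave 10.6% to 13.3% of beta chain UMIs. In each of the 6 samples both shares were lower in the other cells, with no overlap between the classes, and the values were not tested because the classes were set by the same genes. Globin UMIs in the other cells amounted to 7.77, 18.8 and 16.8 per 10000 UMIs in the controls and 8.74, 16.2 and 29.0 on the high-fat diet. Reads of the near-identical coding parts of each pair can be split by the counting, so the shares of Hba-a1 and Hba-a2, and of Hbb-bs and Hbb-bt, are uncertain. The last 100 bases of 1 annotated transcript of each gene were 72.4% identical for the alpha pair and 67.3% for the beta pair.

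**Figure D1:**
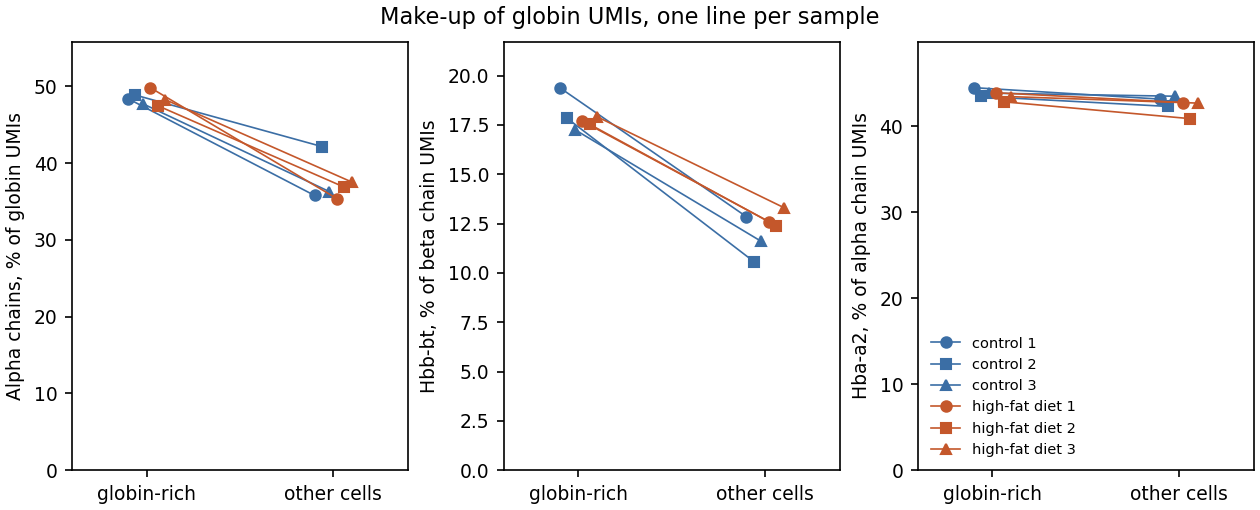
Make-up of globin UMIs in globin-rich cells and other cells, 1 line per sample (blue, control; orange, high-fat diet), with percent on each y axis from 0. Alpha chains fell between 47.5% and 49.8% of globin UMIs in globin-rich cells and between 35.4% and 42.1% in other cells, while the Hba-a2 share of alpha chains was 42.8% to 44.5% against 40.9% to 43.5%.

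The label of erythroid cells was checked against Alas2, the first enzyme of haem synthesis in red cell precursors, which the rule did not use. At least 1 Alas2 UMI was found in 1123 of the globin-rich cells (94.2%) and in 1170 of the other cells (2.01%). With each cell thinned to 500 non-globin UMIs, which left out 72 globin-rich cells and no other cell, Alas2 was seen in 71.9%, 63.2% and 71.8% of globin-rich cells in the controls. On the high-fat diet the thinned shares were 79.7%, 80.0% and 86.9%. Among other cells the thinned shares lay between 0.0784% and 0.470%. The marker of erythroid cells was thus present in most of these cells in every sample.

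Levels of non-globin transcripts are given below as CPM: UMIs per 1000000 non-globin UMIs in the summed counts of a class in a sample. Ratios are log2(CPM + 1) differences, averaged over the 6 samples. Because the globin share that picked the cells comes from the same counts, the contrast with the other cells is described without a test. Among 1528 genes at 100 CPM or more in either class, 44 (2.88%) were higher by log2 1 or more in all 6 samples, and none (0%) was lower by as much in all 6. Limiting the other cells to those with 300 to 1000 genes gave 7 such lower genes. The 10 genes at the low end of the ranking, each lower in all 6 samples, were Samd4, Rpl27-ps3, Krcc1, Ncam1, Zfhx3, Ttc28, Grcc10, Cyr61, Mir143hg and Rpl6l, at log2 ratios of -1.85 to -1.03. Their order leaned on the 32 globin-rich cells of control 1. Samd4, Rpl27-ps3 and Krcc1 had 0 CPM there, at ratios of -7.15, -6.70 and -6.85. Their ratios in the sample with the smallest difference were -0.48, -0.03 and -0.13. Ncam1, Zfhx3, Ttc28 and Grcc10 each had 19.2 CPM in the globin-rich cells of control 1. Ncam1, a neural cell adhesion molecule, averaged 56.6 CPM in globin-rich cells and 122 CPM in other cells (log2 ratio -1.23 ± 1.05). Rpl6l and Rpl27-ps3 are copies of ribosomal protein genes, so their counts are uncertain. Against other cells of 300 to 1000 genes the log2 ratio turned to 0.54 for Ncam1, 0.20 for Ttc28 and 1.45 for Mir143hg.

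Haem synthesis and iron genes were represented by 8 of 23 list members at 100 CPM, of which 4 were higher by log2 1 or more in all 6 samples. Alas2 stood at 2375, 2353 and 2508 CPM in the controls, against 3708, 3492 and 4172 CPM on the high-fat diet, and at 1.31 to 9.21 CPM in the other cells. Its log2 ratio was 9.30 ± 0.58 (SD, n = 6). Fech, which inserts iron into the porphyrin ring, had a log2 ratio of 4.27 ± 0.51, with 318 to 797 CPM in globin-rich cells and 23.5 to 31.6 CPM in other cells. Slc25a37 (mitoferrin 1), the mitochondrial iron importer, had a log2 ratio of 4.60 ± 0.63, and Glrx5, of iron-sulphur cluster assembly, one of 2.04. The ferritin chain genes Fth1 and Ftl1 were abundant in both classes, with log2 ratios of 0.21 and 0.78. The middle enzymes of the pathway were sparse, with 44 UMIs of Alad, 7 of Uros and 28 of Ppox over all globin-rich cells.

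Membrane and skeleton genes of the red cell gave 4 of 7 members at 100 CPM past the same limit. Slc4a1, the band 3 anion exchanger, had 95.8, 22.8 and 67.4 CPM in the controls, against 126, 152 and 188 CPM on the high-fat diet, and 0.460 CPM at most in other cells. Its log2 ratio was 6.29 ± 0.95. Epb41, the protein 4.1 gene that ties spectrin to the membrane, had a log2 ratio of 3.67 ± 0.58 and Cd24a, a surface glycoprotein of erythroid and B cells, one of 3.90 ± 1.19. Sptb, a beta spectrin gene, gave 15 UMIs in all globin-rich cells.

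Genes of reticulocyte remodelling, the clearance of organelles and proteins, had 17 of 25 members at 100 CPM and 9 past the limit. Mkrn1, a RING-type ubiquitin ligase, had a log2 ratio of 5.11 ± 0.58. The ubiquitin-conjugating enzyme genes Ube2l6 and Ube2o had ratios of 5.06 ± 0.44 and 3.48 ± 0.47. Bnip3l (Nix), the receptor for removal of mitochondria by autophagy, had a ratio of 2.67 on a level of 132 to 161 CPM in other cells. Isg20, an exonuclease, and Fam46c had ratios of 4.60 and 4.90. Nfix, a transcription factor of the list, was lower in 5 of 6 samples, with a ratio of -0.71.

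Among 11 redox and metabolic genes at 100 CPM, of 18 listed, 5 passed the limit. Bpgm makes 2,3-bisphosphoglycerate, which loosens the hold of haemoglobin on oxygen, and had a log2 ratio of 6.56 ± 0.50. Car2, carbonic anhydrase 2, varied most between samples, from 132 CPM in control 2 to 1092 CPM in control 1, with a ratio of 7.31 ± 1.31. Gclm, of glutathione synthesis, had a ratio of 2.44, Prdx2, a peroxide-reducing enzyme abundant in red cells, one of 1.68, and Adipor1 one of 1.82. Pklr, the red cell pyruvate kinase, had 0 UMIs, which allows up to 1.50 CPM (3 counts in 1999747 non-globin UMIs, counting error only). Other genes among the 20 with the largest ratios were Rec114, Apol11b, Rsad2, Fam213a and Fam220a, at ratios of 6.72, 6.13, 4.68, 4.52 and 3.82. Fam213a stood at 326, 128 and 280 CPM in the controls, against 467, 559 and 783 CPM on the high-fat diet.

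**Figure D2:**
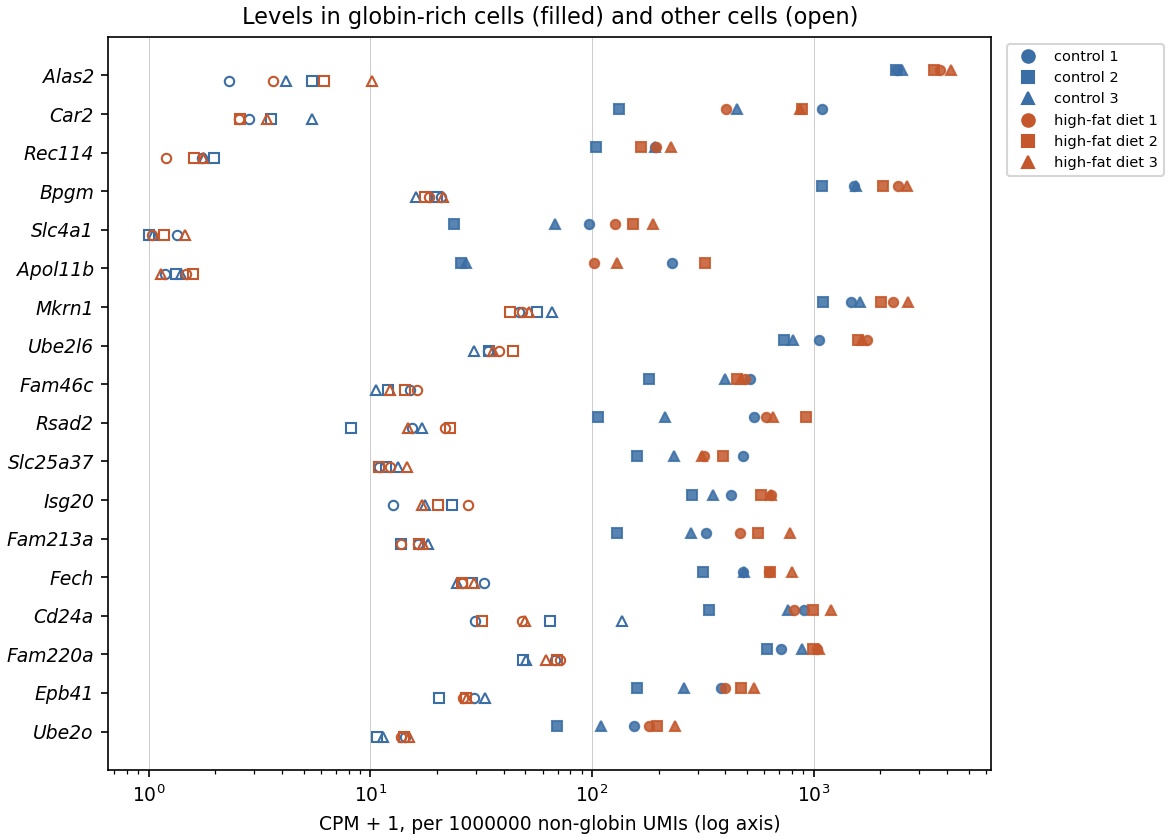
18 of the 20 genes with the largest ratio of globin-rich over other cells: CPM + 1 on a log axis (per 1000000 non-globin UMIs), 1 symbol per sample, filled for globin-rich cells and open for other cells. Filled symbols lie right of the open ones for every plotted gene and sample, from Alas2 (log2 9.30) to Ube2o (log2 3.48).

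Of the 20 genes with the largest ratios, 10 had a RefSeq window, and 3 of the 10 (Alas2, Apol11b and Isg20) held the GATA letters within 250 bases before a start, against 18.8% of all 27025 genes with a window. CACCC was found for 5 of the 10, against 54.5% of all genes. These counts are small and describe the letters of these windows only.

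Transcripts of earlier erythroid stages were mostly rare. The master regulators Gata1 and Klf1 gave 2 and 12 UMIs in all globin-rich cells, and Gfi1b gave 0. Epor, the erythropoietin receptor, gave 10 UMIs and Kit, a receptor of progenitors, gave 7. Higher levels were seen for genes that the other cells express too. Lmo2, a partner of Gata1 that endothelial cells also use, averaged 105 CPM (226 UMIs) against 65.1 CPM in other cells and was higher in all 6 samples, with a log2 ratio of 0.67 ± 0.22. Cd34, a surface protein of progenitors and endothelium, averaged 222 CPM (502 UMIs) against 254 CPM, and Zbtb7a 62.2 CPM (151 UMIs) against 102 CPM. Hemgn, a nuclear protein of erythroid cells, was above the other cells in all 6 samples, with 64 UMIs in all. The proliferation genes Mki67 and Top2a had 16 and 26 UMIs, with mean levels of 5.09 and 9.23 CPM against 10.0 and 16.2 CPM in other cells. Of 15 cell cycle genes, Ube2c, which feeds the anaphase-promoting complex, was the one at 100 CPM, with 95.8, 112 and 114 CPM in the controls, against 265, 236 and 286 CPM on the high-fat diet.

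Among other globins, Hbq1a and Hbq1b, theta chain genes, were present in the globin-rich cells of all 6 samples (12.3 to 56.9 CPM and 17.5 to 115 CPM) and at 0.155 CPM or less in other cells. The embryonic genes Hbb-y and Hba-x had 0 UMIs, again allowing up to 1.50 CPM, and Hbb-bh1 had 5. Genes of the lists whose symbols did not match, such as Ahsp, the alpha globin chaperone, were not analysed here.

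Transcripts of other aortic cells were also present. Every globin-rich cell held at least 1 UMI of the markers of B cells, T cells, macrophages, endothelial cells, smooth muscle, fibroblasts, neutrophils or mesothelium. The summed smooth muscle markers (7 of 7 at 100 CPM) ranged from 1520 CPM in control 2 to 19708 CPM in high-fat diet 2, against 8759 to 16198 CPM in other cells. The summed fibroblast markers (7 of 7) ranged from 5705 to 16719 CPM, against 6900 to 16623 CPM. The summed endothelial markers (4 of 7 at 100 CPM) were higher in globin-rich than in other cells in all 6 samples. They were at 888 to 6819 CPM against 769 to 2593 CPM. Macrophage markers (6 of 8) were higher in all but control 3, at 2658 to 6491 CPM against 2301 to 4199 CPM. B cell markers (3 of 5 at 100 CPM) were highest in control 3 in both classes, at 1264 and 1828 CPM, and lowest in high-fat diet 2 in globin-rich cells (50.5 CPM). Neutrophil markers (2 of 9) reached 4846 CPM in the 32 globin-rich cells of control 1 and 212 to 1203 CPM in the other 5 samples. In other cells they were at 116 to 2343 CPM. The globin-rich cells were higher in controls 1 and 2 and lower in the remaining samples. At 500 UMIs, Acta2 of smooth muscle was seen in 14.1% of globin-rich cells of control 2 and in 50.7% to 93.5% of those of the other 5 samples. Among other cells the shares were 27.2% in control 2 and 33.7% to 68.3% in the other 5, each below that of the globin-rich cells except in control 2. Whether these transcripts came from free RNA, from droplets with more than 1 cell or from the cells themselves was not tested. A doublet score above 0.25 was given to 31 globin-rich cells (2.60%) and 1348 other cells (2.32%). No barcode was shared between globin-rich cells, and 90 of their barcodes recurred in another library, where 2256 barcodes recurred in all.

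Alas2 per 1000000 non-globin UMIs was higher the larger the globin share that defined a group of cells when samples were pooled, and in 5 of the 6 samples. Pooled, it was 397 CPM in the cells just outside the threshold, 810 CPM at a globin share of 20% to 40%, 1984 CPM at 40% to 60% and 5673 CPM at 60% or more. Control 1, with 2, 3, 3 and 26 cells in these groups, broke the order, at 367, 293, 3054 and 2808 CPM. A further 1556 globin-rich barcodes had fewer than 300 genes and were left out by the rule. They had a median of 179 genes, a median globin share of 89.2% and an Alas2 level of 13828 CPM. Of them, 1046 came from control 2, none from control 1 and 280 from high-fat diet 3.

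**Figure D3:**
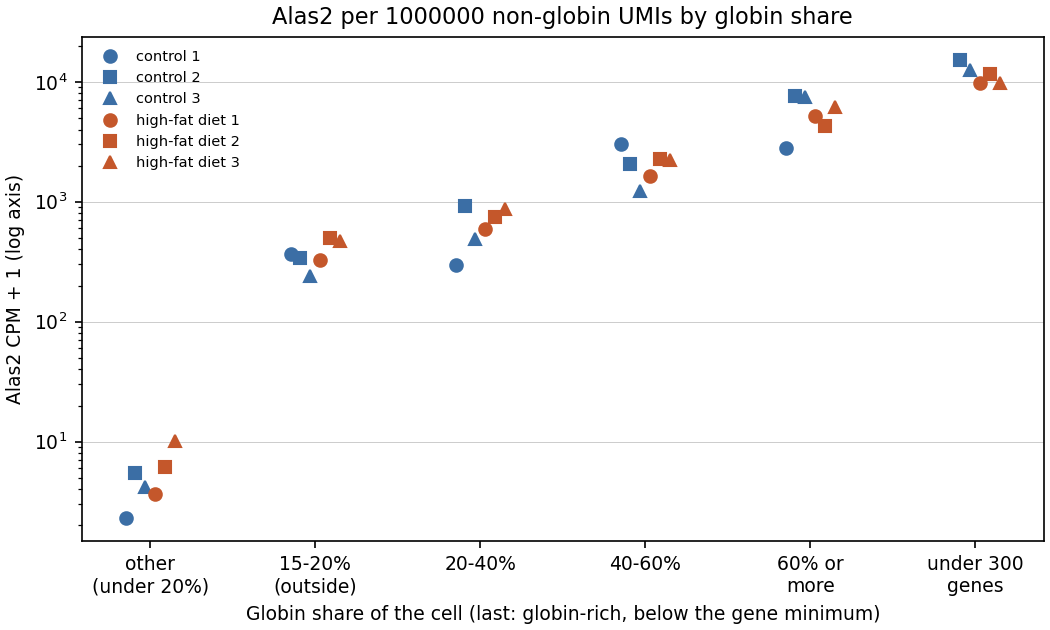
Alas2 CPM + 1 (log axis, per 1000000 non-globin UMIs) by globin share of the cells, 1 symbol per sample. Levels over all samples were 4.33 CPM in other cells and 5673 CPM in cells with 60% globin or more, and control 1 has no symbol among barcodes under 300 genes because it held none.

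The first question by diet was how many such cells each sample held. Globin-rich cells numbered 32, 223 and 85 in the controls, or 0.488% (95% Wilson interval 0.346 to 0.689), 1.35% (1.18 to 1.53) and 1.02% (0.825 to 1.26) of passing cells. On the high-fat diet they numbered 172, 205 and 475, or 1.66% (1.43 to 1.92), 2.58% (2.25 to 2.95) and 4.94% (4.52 to 5.39). All 3 high-fat diet samples lay above all 3 controls. The mean was 0.951% ± 0.433 (SD, n = 3) against 3.06% ± 1.69, a difference of 2.11 percentage points (exact two-sided permutation test, p = 0.1, the smallest that 3 against 3 samples allow). The red cell lysis step can set this share, and its part was not tested.

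The separation did not hold at every minimum number of genes. With no minimum the shares were 0.488%, 7.20% and 2.13% in the controls and 2.18%, 3.55% and 7.63% on the high-fat diet, where control 2 lay above 2 of the 3 high-fat diet samples (exact permutation test, p = 0.5). At 200 genes control 2 stood at 3.07% against 2.11%, 2.89% and 6.79% (exact permutation test, p = 0.3). At 500 genes the groups again did not overlap, at 0.458% to 0.957% against 0.989% to 2.59%, and at 1000 genes they overlapped, with means of 0.413% and 0.512% (exact permutation test, p = 0.8). Each sample joined a pair of barcode suffixes, whose shares ranged from 0.0475% to 6.32%. The suffixes are called wells here, though no label says what they stand for. In control 2, 201 of the 223 cells came from well 2. Wells of 1 sample differed by up to 14.7-fold in share, in control 1, with 31 of 4448 cells against 1 of 2104. That ratio and the lowest share thus rest on 1 globin-rich cell. Over the first wells alone the means were 0.788% and 3.59%, over the second wells 1.31% and 1.91% (exact permutation tests, p = 0.2 and 0.6).

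**Figure D4:**
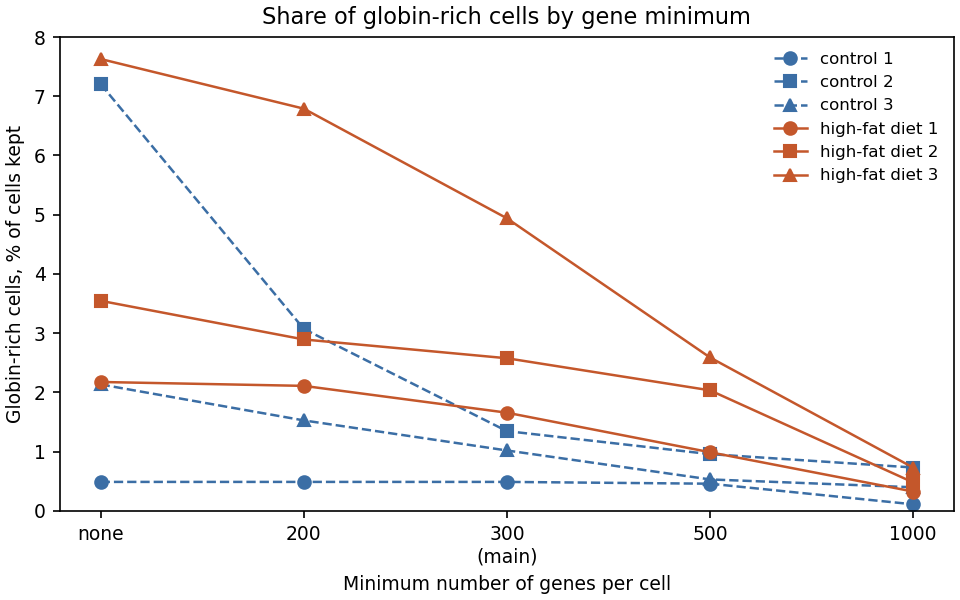
Share of globin-rich cells among cells kept (percent, y axis) against the minimum number of genes per cell (x axis, categories), 1 line per sample, dashed for controls. At 300 genes the 3 high-fat diet samples (1.66% to 4.94%) lie above the 3 controls (0.488% to 1.35%), while with no minimum control 2 lies at 7.20%.

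Cell measures that do not rest on the globin genes of the rule were compared between the diets. The smallest exact permutation p of this design is 0.1, so that none could pass. The rule also used genes per cell, mitochondrial UMIs and total UMIs. Of the measures compared here only the ribosomal protein share lay outside it, and the rest are a description. Ribosomal protein genes took 20.3% ± 3.50 (SD, n = 3) of non-globin UMIs in the controls and 15.7% ± 1.69 on the high-fat diet (exact permutation test, p = 0.2). The mitochondrial share was 7.76% ± 2.57 in the controls and 3.25 percentage points higher on the high-fat diet (exact permutation test, p = 0.4). For median non-globin UMIs and median genes per cell the exact permutation p was 0.7 and 0.5. After Benjamini-Hochberg adjustment over 8 measures each was 0.9. The other measures, the globin share and the 3 chain shares, come from the genes that chose the cells and are a description. The median globin share was 67.0%, 49.5% and 82.8% in the controls and 77.1%, 66.5% and 76.0% on the high-fat diet, so control 2 was lowest and control 3 highest. By sample, the ribosomal protein share was 16.3% in control 1 and 21.6% in control 3, with control 2 higher still, and 17.5%, 15.4% and 14.2% on the high-fat diet, with an overlap of the groups. At 500 UMIs per cell the median number of genes was 307 to 369.5 in globin-rich cells and 327 to 362 in other cells.

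The second question was whether single genes differed by diet within the globin-rich cells. UMIs were summed per sample and tested with edgeR's quasi-likelihood test on 3593 genes, with the 4 rule genes left out. After Benjamini-Hochberg adjustment, 1 gene passed an adjusted p of 0.05 (0.0278% of genes), and 306 had an unadjusted p under 0.05. DESeq2 called 8 genes and edgeR with no filter on low counts called 83.

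That gene was Ccl5, a chemokine of T and NK cells, which fell on the high-fat diet. It stood at 249, 354 and 508 CPM in the controls (13, 202 and 98 UMIs) and at 16.8, 47.1 and 43.1 CPM on the high-fat diet (4, 14 and 28 UMIs). The log2 fold change was -3.37 ± 0.41 (SE; edgeR, adjusted p = 0.0260). Groups did not overlap. In the other cells Ccl5 was at 121, 157 and 501 CPM against 82.9, 56.7 and 103 CPM. The log2 fold change there was -1.80, with an adjusted p of 0.473 from edgeR, and the difference between the classes did not pass either (interaction in edgeR, adjusted p = 0.309). T cell markers in globin-rich cells summed to 57.5, 223 and 342 CPM in the controls, against 156, 47.1 and 92.3 CPM on the high-fat diet, none of the 6 markers at 100 CPM, and their part in the change of Ccl5 was not tested. The call was lost when any 1 high-fat diet sample was left out (adjusted p from 0.113 to 0.313), with cells of at least 1 Alas2 UMI (0.0544) and at 500 genes (0.0732). No gene, and so not Ccl5, was called at 60% globin or with same-numbered samples as blocks.

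Next came genes with the smallest unadjusted p whose groups did not overlap, none of which passed edgeR's adjusted test. In all, 256 genes (7.12%) were higher and 228 (6.35%) lower without overlap. Hspa5, the chaperone of the endoplasmic reticulum, was at 211, 216 and 223 CPM against 483, 684 and 614 CPM, a log2 difference of 1.42 ± 0.26 (adjusted p = 0.188 in edgeR). DESeq2 called Hspa5 (adjusted p = 0.0403), as well as Cd52, Ptprcap, Coro1a and Rps27rt on the lower side (adjusted p from 0.00340 to 0.0499). Ube2c, Hspa8, Sost and Ube2l6 differed by 1.21, 1.24, 2.06 and 0.95 on the log2 scale (adjusted p from 0.231 to 0.286 in edgeR). In the other cells the log2 fold change was 1.65 for Hspa5, -0.08 for Ube2c, 0.93 for Hspa8, 0.64 for Sost and 0.19 for Ube2l6, and none passed there or in the interaction. Sost was also expressed in the other cells, at 303, 215 and 129 CPM in the controls, against 356, 407 and 289 CPM on the high-fat diet. On the lower side were Cd52 and Ptprcap, of leukocytes, Coro1a, an actin regulator of blood cells, Psmb9, of the immunoproteasome, and Rps27rt, a ribosomal protein gene. In that order their log2 fold changes were -1.77, -3.22, -1.84, -1.92 and -1.79 (adjusted p from 0.167 to 0.231 in edgeR). In the other cells the same 5 had log2 fold changes of -1.60, -2.12, -1.68, -0.88 and -1.11, and none passed.

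Genes of the remodelling, haem and iron, membrane, and redox lists were mostly on the higher side on the high-fat diet in cells with 20% globin or more, without any call. Of 21 remodelling genes tested, 20 had a positive log2 fold change, with a median of 0.65, against 1695 positive of 3593 genes and a median of -0.03 over all of them. Of the 21, 11 were higher without overlap, against 7.12% of all genes tested. Of 11 haem and iron genes 10 were positive (median 0.48), of 9 membrane genes 7 (0.64) and of 12 redox and metabolic genes 11 (0.52). Of 4 erythroid transcription factor genes 2 were positive (0.19), as were both of the other globins tested (0.86) and 0 of 2 early progenitor genes (-0.26). Without control 2 the medians were 0.19 for haem and iron, 0.33 for membrane, 0.28 for redox and metabolism and 0.49 for remodelling genes. The log2 fold change of Alas2 was 0.64 ± 0.23 (SE; adjusted p = 0.471 in edgeR), and those of others were as follows: Bpgm 0.77 ± 0.24 (0.402), Mkrn1 0.73 ± 0.24 (0.461) and Slc4a1 1.68 ± 0.44 (0.329). The lists share cells and a common total, so their members are not independent.

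The sign turned in the cells richest in globin. In cells with 60% globin or more the medians were -0.11 for the remodelling genes, -0.22 for haem and iron and -0.21 for redox and metabolism, and 0.12 for the membrane genes. At 40% globin the medians of these lists were above 0, at 0.46, 0.30, 0.34 and 0.41, as they were with no gene minimum, at 0.21, 0.08, 0.21 and 0.30, in the same order. At 60% globin or more Alas2 was at 2808, 7650 and 7510 CPM in the controls, against 5173, 4302 and 6136 CPM on the high-fat diet. The groups thus overlapped, and controls 2 and 3 were highest. With no gene minimum Alas2 was at 2375, 7436 and 3700 CPM against 4146, 3998 and 4913 CPM. The share of cells with under 60% globin differed between samples, since control 2 had 135 such cells of 223 and high-fat diet 3 had 69 of 475.

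**Figure D5:**
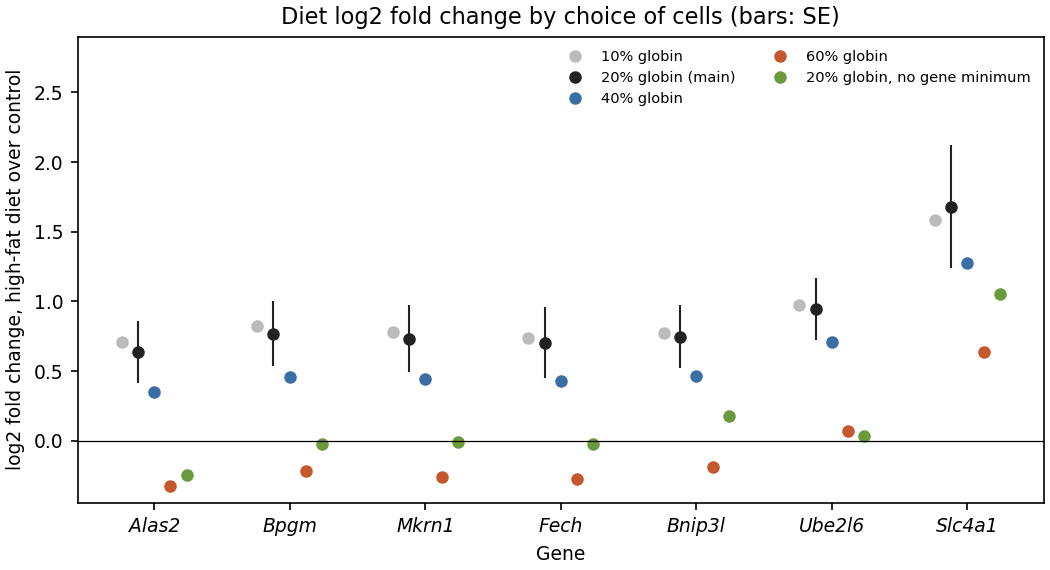
Log2 fold change of 7 erythroid genes, high-fat diet over control, from edgeR in cells chosen at 10%, 20%, 40% and 60% globin, and at 20% with no minimum number of genes; bars are SE at 20%. Alas2 goes from 0.64 at 20% to -0.32 at 60%. Slc4a1 stays above 0 at each choice, on 5, 13 and 13 UMIs in the controls and 30, 45 and 122 on the high-fat diet at 20%. At 60% its groups overlap, at 34.2, 98.1 and 251 CPM in the controls, against 193, 173 and 279 CPM.

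Immune and stress genes were read beside the other cells. All 7 MHC class I presentation genes tested had negative log2 fold changes (median -0.77, and -0.61 in other cells), against 1898 negative of 3593 genes. Of the 7, 5 were lower without overlap, against 6.35% of all genes tested, such as H2-K1 at 555, 581 and 813 CPM against 366, 367 and 431 CPM. All 6 MHC class II genes were negative (median -0.55, and -1.02 in other cells), though their groups overlapped. Of 12 heat shock and cold response genes 10 were positive (median 0.82, and 0.82 in other cells). The cold-response genes Rbm3 and Cirbp were the exceptions, at -1.28 and -1.37. None of these genes passed edgeR's adjusted test. B cell markers (4 tested) had a median of -2.64 in globin-rich cells and -2.43 in other cells, fibroblast markers (7) -0.78 and -0.14, and smooth muscle markers (7) 0.68 and 0.15, and their part in the changes was not tested. Without control 2 the medians in globin-rich cells were 0.01 for fibroblast and 0.17 for smooth muscle markers, with 4 of 7 positive in each, and without high-fat diet 2 the smooth muscle median was 0.12.

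The third question was whether the diet effect differed between the globin-rich and the other cells of the same samples. In an edgeR interaction test with the sample as a block, 1 of 3593 genes (0.0278%) passed. It was Fam213a, which encodes a peroxiredoxin-like protein, at 326, 128 and 280 CPM against 467, 559 and 783 CPM in globin-rich cells and 15.4, 12.8 and 17.3 CPM against 12.7, 15.7 and 16.3 CPM in other cells. Its diet log2 fold change was larger in globin-rich cells by 1.66 ± 0.26 (SE; edgeR, adjusted p = 0.0415), and the call was lost without control 2 (0.0640) and without any 1 high-fat diet sample (0.162 to 0.403), in fits where the difference was 1.35, 1.71, 1.67 and 1.47. For Alas2 the difference between the classes was -0.06 (edgeR, adjusted p = 0.989) and for Mkrn1 1.14 (0.058).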

How the data were processed

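The authors deposited whole-number UMI counts, a matrix of 27998 genes by cell barcodes for each of 6 samples, made with Cell Ranger 3.0 on the mm10 build, per the submitters' processing notes. How cells were called and which annotation was used is not given in the sources used here. Library totals were 41388034 to 83886418 UMIs, with medians of 3856 to 5955 UMIs per deposited cell.

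The globin-rich cells, the 22 gene lists and the tests were chosen with earlier results of these data known. The sample was the replicate: UMIs of its globin-rich cells, and of its other cells, were added up. CPM is per 1000000 non-globin UMIs, with a pseudocount of 1 on the log2 scale. The contrast with other cells was not tested. Diet was tested with the edgeR 4.0.16 quasi-likelihood test (TMM factors, default filter, robust fit, Benjamini-Hochberg adjustment at 0.05), with DESeq2 1.42.0 as an alternative, and the difference in diet effect between classes as an interaction with the sample as a block. Shares and cell measures were compared by exact two-sided permutation, and single shares carry 95% Wilson intervals, which cover counting error only. Scrublet in scanpy 1.11.5 scored doublets per well with an expected rate of 0.06, and doublets were kept. Tested on simulated data of 3593 genes, the diet test recovered 23 of 100 genes changed 2-fold and 96 of 100 changed 4-fold, with 6 false calls.

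Genes named are the 5 markers, list members at 100 CPM, the 20 higher and 10 lower genes with the largest ratio among those at 100 CPM with the same sign in 6 samples, and by diet the called genes or else the 5 with the smallest p in each direction without overlap at 50 CPM. Unnamed gene models and sex-linked genes were left out of these ranks, and some genes that meet the rule are not reported here. Members below these levels were named to give their UMI counts, after the values were seen. Alternatives were other globin, gene and mitochondrial limits, doublets left out, single wells, each sample left out, other normalization and filters, and the replicate block. The 60% globin limit and the removal of well 2 of control 2 were chosen after seeing the data.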

Additional observations from a re-analysis of the deposited data

Results flagged for a closer look

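Fam213a was singled out because its diet log2 fold change differed between globin-rich and other cells of the same samples, by 1.66 ± 0.26 (SE; edgeR interaction, adjusted p = 0.0415). It was 1 of 3593 genes tested. It rested on 17, 73 and 54 UMIs in the globin-rich cells of the controls and 111, 166 and 509 UMIs on the high-fat diet. Within the globin-rich cells alone its diet log2 fold change was 1.39 ± 0.35 (edgeR, adjusted p = 0.294), higher in 3 of 3 high-fat diet samples than in any control. At 60% globin or more its levels were 205, 556 and 1088 CPM in the controls, against 674, 630 and 1222 CPM, and overlapped. Groups of 3 samples are too small for a search for single outlying samples.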

How the results depend on the processing

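The difference in the share of globin-rich cells was above 0 under each alternative run, but fell from 2.11 to 0.0988 percentage points at 1000 genes and to 0.602 in the second wells alone, and was 1.17 to 2.81 with 1 sample left out. The count of genes called by diet (1 gene) was 8 with DESeq2, 83 with no filter on low counts, 0 at 60% globin, 0 at 500 genes, 0 with at least 1 Alas2 UMI, and 0 to 21 with 1 sample left out (21 without control 1). With the replicate block it was 0, and 196 genes had an unadjusted p under 0.05. The numbers were not taken as pairs, because replicate numbers do not say that samples are paired. Same-numbered samples correlated by -0.13, -0.18 and 0.09 in their deviations from group means. With 3 samples per group these correlations cannot decide the question. The count for the difference between classes (1 gene) was 9 with DESeq2, 58 with no filter, and 0 to 28 with 1 sample left out (28 without control 1). For cell measures the design could not reach 0.05 under any alternative, so their tests say nothing of stability. Against other cells of 300 to 1000 genes, 7 genes were lower in all 6 samples, and Ncam1, Ttc28 and Mir143hg, among the 10 lower genes ranked (log2 -1.23, -1.12 and -1.06), turned to 0.54, 0.20 and 1.45. At 60% globin the diet log2 fold change turned, from above 0, to -0.32 for Alas2, -0.21 for Bpgm, -0.26 for Mkrn1, -0.28 for Fech, -0.19 for Bnip3l and -0.074 for Ube2c, and list medians to -0.22 (haem and iron), -0.11 (remodelling) and -0.21 (redox). With no gene minimum it turned to -0.25 for Alas2, -0.019 for Bpgm, -0.011 for Mkrn1 and -0.025 for Fech. The cause of these shifts was not tested. Globin-rich cells without any marker UMI of other cells gave no value, since there were 0. The 32 cells of control 1 (52211 non-globin UMIs) limit the precision of its levels.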
